A study of Homo sapiens with 16 samples.

Results

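BS2 is a bacterial esterase that was expressed from a plasmid in HEK293T cells, an established line from human embryonic kidney, and the comparison described here set all 9 RNA pull-downs from BS2-transfected cells against the 3 pull-downs from non-transfected cells, 12 of the 16 libraries of the series. The libraries were taken by their labels: cytosolic BS2 (2 libraries), nuclear BS2 (3), mitochondrial BS2 (2), BS2 carrying the NIK3x tag, labelled nucleolar (2), and non-transfected cells (3). The other 4 libraries were inputs, RNA that had not been pulled down, 1 each from non-transfected, cytosolic, nuclear and mitochondrial BS2 cells, and no input of the nucleolar construct was analysed here. All groups were labelled wild type, and all cells, controls included, received 50 µM of the probe AC-2 for 3 min, which was stopped with 1 mM PMSF, an inhibitor of serine esterases. RNA of the BS2 cells was collected 24 h after Lipofectamine 3000 transfection. The non-transfected cells are not labelled as having received a plasmid or the transfection reagent, so the effect of transfection itself and that of BS2 labelling cannot be told apart in any pull-down value below. BS2 was carried in by transient transfection of a plasmid, so the cells of a culture need not all have held it, and the promoter of the plasmid is not given in the sources used here. Pull-down replicates are called biological in the labels, which do not say whether each was its own culture, and the p-values therefore measure a spread between libraries that may be technical in part.

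In this kind of experiment, an esterase foreign to human cells removes a mask from a small probe, which then reacts with RNA close to the enzyme. The tagged RNA is joined to biotin by click chemistry and pulled down, and the pulled-down RNA of cells without the enzyme gives the background. Targeting the enzyme to different compartments is meant to tag different RNAs, so RNAs that shift the same way with every construct are shifts that location of the enzyme does not set apart. All libraries, inputs included per the labels, were made from RNA captured by its poly(A) tail.

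Levels are given as CPM, read counts scaled for sequencing depth by the authors, and were recovered from the deposited log2 table. All log2 changes are on the log2(CPM + 1) scale, BS2 minus non-transfected, with their standard error (SE). Estimated depth was between 8000000 and 20000000 reads for the pull-downs, so that 1 read corresponded to 0.0541 to 0.131 CPM, and the shallowest of the 4 inputs held 6340000. Of 24878 genes with values, 15635 reached 1 CPM in at least 3 of the 12 pull-downs and were tested with limma. All 9 HEK293T marker genes passed that filter, among them VIM with a mean of 381 CPM in the non-transfected pull-downs. Of 12 markers of blood, fibroblast, keratinocyte and other cell types in the table, 5 passed, and together those 12 took 0.00283 to 0.00328% of CPM in the non-transfected and 0.00173 to 0.00238% in the BS2 pull-downs. The BS2 transcript was not analysed here, so the labels were set against RNAs of known location. The mitochondrially encoded mRNAs took 4.84 and 6.06% of CPM with the mitochondrial construct, 2.58 and 3.29% with the nucleolar, 0.725 to 0.998% with the nuclear and 0.845 and 0.931% with the cytosolic one, and 1.77 to 2.23% without BS2. In the inputs they took 3.29% with mitochondrial, 1.84% with nuclear and 0.602% with cytosolic BS2 and 1.33% without BS2. The nuclear-retained lncRNAs took 0.274 to 0.314% with nuclear, 0.201 and 0.227% with mitochondrial, 0.183 and 0.2% with nucleolar and 0.107 and 0.114% with cytosolic BS2, and 0.109 to 0.123% without it.

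The presence of any BS2 construct went with a broad shift of the pulled-down RNA. In the pooled test of 9 against 3 libraries, 4308 genes were higher (27.6% of those tested) and 4294 lower (27.5%) at a limma adjusted p under 0.05. That test treated the 9 BS2 libraries as independent, although they were 2 or 3 libraries of each of 4 constructs. Its SEs and p-values do not account for likeness within a construct. A change was counted as shared where, in addition, all 9 BS2 libraries lay on the same side of all 3 non-transfected libraries, which held for 3400 genes upward (21.7%) and 3471 downward (22.2%). The groups did not overlap for 3439 genes upward (22.0%) and 3569 downward (22.8%) with or without the test. The median shared rise was 0.84 and the median shared fall was -0.76 on the log2 scale, against a median of -0.02 over all genes tested. At least 2-fold shared changes numbered 1244 upward and 878 downward. In a bulk sample, fewer cells holding an RNA and less of that RNA per cell cannot be told apart.

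A shared direction was not the same as an equal size. A limma F test among the 4 constructs called 8634 genes (55.2% of those tested), and it called 1617 of the shared rises (47.6%) and 2140 of the shared falls (61.7%). The remaining 1783 rises and 1331 falls did not pass the test of a difference between constructs, which does not show that the constructs gave equal changes.

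The inputs moved in the same direction for most of these genes. All 3 BS2 inputs lay above the single non-transfected input for 2237 of the 3400 shared rises (65.8%, against 27.6% of all genes tested), and below it for 2409 of the 3471 shared falls (69.4%, against 32.8%). The median input change was 0.33 for the shared rises, -0.30 for the shared falls and -0.03 over all genes. In the scatter of both changes, 82 of the 83 ribosomal protein mRNAs lie below the line of equal change and 370 of the 446 zinc finger mRNAs above it, against 8041 of 15635 genes above it. Whether the cellular RNA level sets the change in the pull-down was not tested beyond the input-corrected fit given further on.

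**Figure D1:**
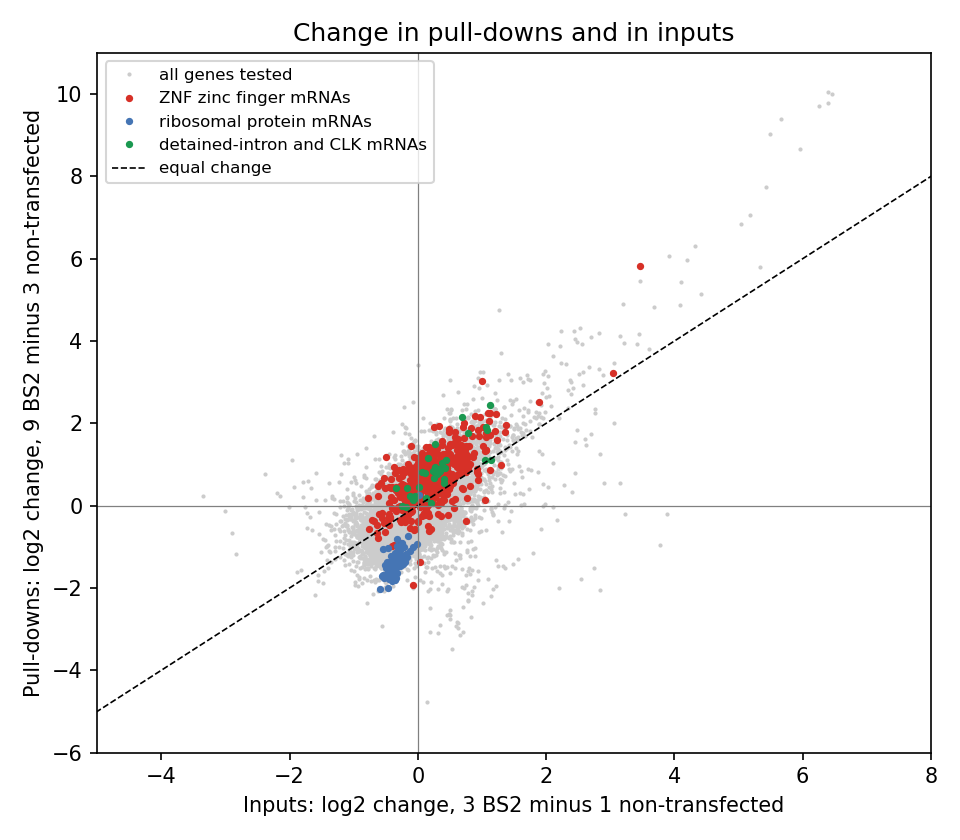
Each point is 1 of the genes tested, with the log2(CPM + 1) change between the mean of the 3 BS2 inputs and the 1 non-transfected input on the x axis and the change between 9 BS2 and 3 non-transfected pull-downs on the y axis. Coloured points mark 3 gene lists, and the median of the ribosomal protein mRNAs is -1.40 in pull-downs and -0.36 in inputs.

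The largest shared rises belonged to genes that were low or nearly silent without BS2. Those under 1 CPM in any control needed BS2 libraries, where they are high, to pass the filter. HKDC1, which encodes a hexokinase-like enzyme, stood at 0.235, 1.18 and 0.515 CPM in the non-transfected pull-downs and between 701 and 5860.5 CPM, with a median of 1018, in the BS2 pull-downs. No library of one group came near the other, and both nucleolar libraries stood above the 7 others (log2 change 9.71, SE 0.59, limma adjusted p = 5.9e-09). The testis-associated gene SPATA9 (chr5:95652181-95698711, GRCh38) behaved alike, with 0.626, 4.2 and 1.65 CPM in the controls and a range of 1691 to 8633 CPM around a median of 2397 with BS2 (log2 change 10.00, SE 0.49, limma adjusted p = 4.8e-10). Its highest values were again the 2 nucleolar libraries.

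Long noncoding RNAs were among them as well. LHFPL3-AS1, an antisense lncRNA, was at 0.157, 1.97 and 0.721 CPM without BS2 and rose to between 925 and 2516 CPM, median 1756 (log2 change 9.79, SE 0.29, limma adjusted p = 1.07e-12). LINC01050 was listed at 0, 0.131 and 0 CPM in the controls, under the level of 3 reads, and reached 75.1 to 235 CPM, median 105, with BS2. Both were far apart between the groups, and both were lowest with different constructs, the mitochondrial for LHFPL3-AS1 and 1 nuclear library for LINC01050. Whether reads were assigned by strand is not given in the sources used here, so reads of an antisense gene and its partner may be mixed.

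Coding genes for adhesion, transport and growth control completed the group. CDH13, which encodes a cadherin held by a lipid anchor, went from 0.543, 0.788 and 0.309 CPM to a range of 457 to 1386 CPM, median 824 (log2 change 9.04, SE 0.28, limma adjusted p = 1.29e-12). KCNT2, a sodium-activated potassium channel, was at 6.03, 11.2 and 8.66 CPM without BS2 and at 1727 to 7867 CPM, median 4121, with it. The other named rises were HMGCLL1 (7.74), IGFBP6, which encodes a binding protein of insulin-like growth factors (6.31), the transmembrane channel-like gene TMC8 (5.97) and the zinc finger gene ZNF653 (5.82), all as log2 changes. Of the 15 largest rises, 5 were known by clone names only.

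All 3 BS2 inputs were above the non-transfected input for each of the 10 named rises. The inputs held SPATA9 at 9.49 CPM without BS2 and at 1052, 1153 and 645 CPM with the cytosolic, nuclear and mitochondrial constructs in turn. LHFPL3-AS1 was at 6.11 CPM in the input without BS2 and at 689, 951 and 323 CPM in the BS2 inputs. These RNAs were already high in the RNA that was not pulled down, and the part of transfection in these levels was not tested. The plasmid sequence was not used here, so whether some reads assigned to these genes came from the plasmid was not tested either.

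**Figure D2:**
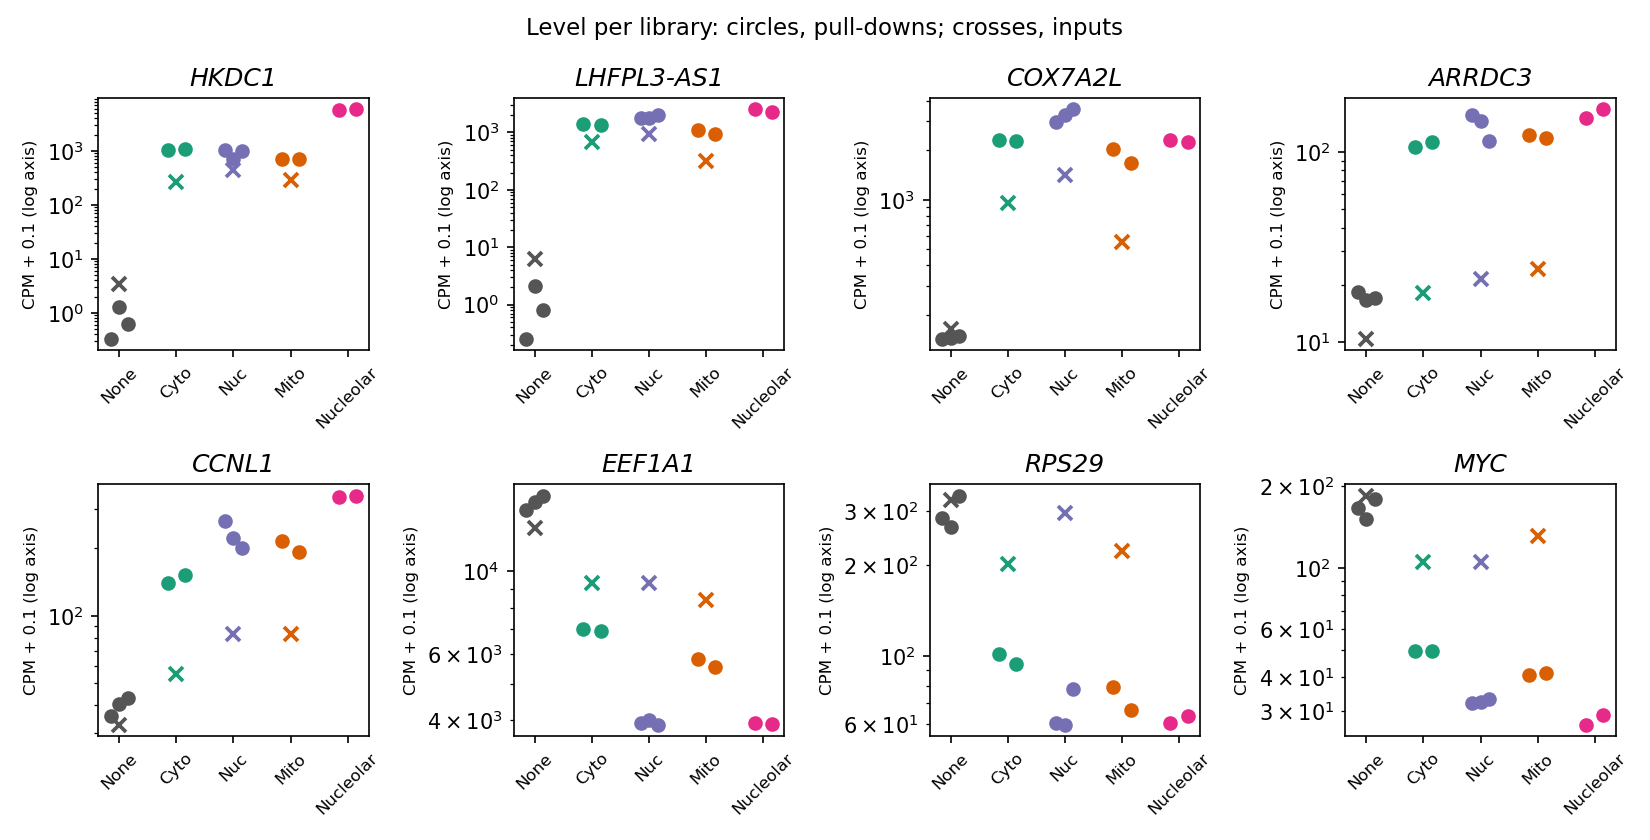
Level of 8 genes in CPM + 0.1 on a log axis, 1 circle per pull-down and 1 cross per input, for non-transfected cells (None) and cells with the cytosolic, nuclear, mitochondrial and nucleolar constructs. The 5 rising genes have all BS2 pull-downs above the controls, and EEF1A1, RPS29 and MYC have all of them below.

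Genes that were well expressed before BS2 also rose. COX7A2L, whose protein helps to assemble respiratory chain supercomplexes, was at 144, 144 and 148 CPM in the controls and at 1670.4 to 3532 CPM, median 2289, with BS2 (log2 change 4.06, SE 0.20, limma adjusted p = 5.9e-10). The controls were tightly grouped, and the 3 nuclear libraries were the highest of the BS2 libraries. It was the largest rise among genes with at least 10 CPM in the controls. CABLES1, which encodes a protein that binds cyclin-dependent kinases, rose from 41.4, 41.2 and 41.5 CPM to 442 to 1155 CPM, median 558 (log2 change 3.87, SE 0.27, limma adjusted p = 2.37e-08), and its 2 nucleolar libraries were the highest.

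ARRDC3, an arrestin-like adaptor, stood at 18.2, 16.6 and 17 CPM without and at 107 to 167 CPM, median 122, with BS2 (log2 change 2.86, SE 0.14, limma adjusted p = 4.8e-10). For MXD1, a partner of MAX that opposes MYC at promoters, the controls were at 14.2, 12.2 and 13.6 CPM and the BS2 libraries at 75.5 to 119 CPM, median 90.9 (log2 change 2.74, SE 0.15, limma adjusted p = 2.33e-09). Neither gene showed any overlap of the groups, and the lowest BS2 library of both belonged to the cytosolic construct. RASA2 (3.06), a Ras GTPase-activating protein, ZNF654 (3.04), the DDB1 and CUL4 associated factor gene DCAF17 (2.67), LRRC37A2 (2.64), the mitochondrial ribosomal protein gene MRPS24 (2.62) and WHAMM, a nucleator of actin filaments (2.58), rose as well. LRRC37A2 has near-identical copies in the genome, between which reads may have been split. All 3 BS2 inputs were above the non-transfected input for each of these 10 genes.

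Nearly all cytosolic ribosomal protein mRNAs fell. Of 83 tested cytosolic ribosomal protein mRNAs, 82 were called lower and none higher (27.5 and 27.6% of all genes), all 82 falls were shared, and the median change was -1.40 against -0.02 over all genes. RPS29 fell from 285, 266 and 337 CPM to between 59.5 and 102 CPM, with a median of 66.5 (log2 change -2.01, SE 0.16, limma adjusted p = 1.37e-07). The highest BS2 libraries of RPS29 were the 2 cytosolic ones, and they were still far below every control. RPL39 fell from 1538, 1432 and 1773 CPM to 287 to 540.2 CPM, median 344 (log2 change -2.02, SE 0.21, limma adjusted p = 1.72e-06). The exception was RPS27L, a paralog of RPS27 known as a target of p53, at 41.6, 35.7 and 48.4 CPM without and 43.5 to 58.2 CPM with BS2, groups that overlapped (log2 change 0.25, SE 0.11, limma adjusted p = 0.0751). RPS27L passed the test as higher when common totals, median-of-ratios scaling, 5 group means or the fit without control replicate 3 were used (adjusted p 0.0214 to 0.0416).

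As a share of all CPM, the ribosomal protein list took 9.61 ± 0.56% (SD, n = 3) without BS2 and 4.24 ± 0.52% (SD, n = 9) with it. The controls lay between 9.10 and 10.2% and the BS2 libraries between 3.54 and 5.08%. In the inputs the share was 11.5% without BS2 and 9.53, 9.81 and 9.17% with the cytosolic, nuclear and mitochondrial constructs. Ribosomal protein genes have many processed pseudogenes, and how reads were divided among them is not given in the sources used here.

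Translation factor mRNAs were divided, with 21 of 37 lower and 3 higher (27.5 and 27.6% of all genes) and a median of -0.53. EEF1A1, which delivers aminoacyl-tRNA to the ribosome and was among the most abundant mRNAs, fell from 14622, 15317 and 15934 CPM to between 3893 and 7024 CPM, median 4012 (log2 change -1.66, SE 0.27, limma adjusted p = 0.000112). The cytosolic libraries were the least reduced, and no BS2 library reached a control. EEF2, the translocation factor, was at 2805, 2791 and 3069 CPM without and 1473 to 2521 CPM, median 1957, with BS2 (log2 change -0.53, SE 0.19, limma adjusted p = 0.0269). That call was lost without any 1 of the 3 controls (adjusted p 0.0662 to 0.105), without the mitochondrial construct (0.0532), with no filter (0.0818) and with quantile normalization (0.877). EIF5 went the other way, from 278, 309 and 310.0 CPM to 624 to 938 CPM, median 818 (log2 change 1.41, SE 0.13, limma adjusted p = 7.25e-07). EIF5, a start-codon recognition factor, was also higher in all BS2 inputs. The number of translation factors called higher was 7 with common totals, with quantile normalization or without the nuclear construct, and 8 with 5 group means.

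Many mRNAs of the translation machinery begin with a terminal oligopyrimidine tract, a C followed by a run of pyrimidines, which is known for its part in the joint control of their translation. A tract was looked for on the transcript's strand, as a C at a RefSeq-listed start followed by at least 4 bases that are each C or T. A gene with several listed starts counted as holding a tract where any of them did. For such a gene the start with the longest tract was used, as for RPL11, which has 2 listed starts. Start windows were on hand for 66 ribosomal protein genes, of which 48 held it (72.7%), for 29 translation factors, of which 11 held it (37.9%), and for 10909 tested coding genes, of which 796 held it (7.30%). The windows below run 10 bases before to 20 bases from the start, on the strand of the gene in GRCh38.p14 as RefSeq gives it, and capitals mark the tract from the start base on. RPL39, RPL11, RPL13A, EEF1A1 and EEF2 are shown as falling mRNAs with a tract, and CCNL1 and ZNF79 as rising mRNAs without it. RPS29 is shown as a ribosomal protein mRNA that fell about as far as RPL39 without a tract at the listed start. RPL3 and GAPDH, not shown, held no tract at the listed start either. No rising mRNA with a tract is shown, although 131 shared rises outside the ribosomal protein genes held it. The windows are picked examples.
RPL39, chrX:119791611-119791640, minus strand: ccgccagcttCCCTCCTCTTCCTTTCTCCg
RPL11, chr1:23691796-23691825, plus strand: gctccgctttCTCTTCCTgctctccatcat
RPL13A, chr19:49487598-49487627, plus strand: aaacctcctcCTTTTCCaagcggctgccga
EEF1A1, chr6:73521013-73521042, minus strand: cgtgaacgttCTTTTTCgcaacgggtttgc
EEF2, chr19:3985444-3985473, minus strand: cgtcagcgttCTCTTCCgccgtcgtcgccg
RPS29, chr14:49598691-49598720, minus strand: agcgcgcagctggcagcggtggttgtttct
CCNL1, chr3:157160128-157160157, minus strand: aacgctggttagtcttgtttcgggttccgg
ZNF79, chr9:127424372-127424401, plus strand: aagtggcgccaatcaggcgcgtccctctgg

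Among coding genes other than ribosomal protein genes, the 748 with a tract had a median change of -0.12, and 29.7% were shared falls and 17.5% shared rises. The 10095 without a tract had a median of 0.00, with 22.3% shared falls and 23.4% shared rises. RPL11 fell from 1361, 1349 and 1587 CPM to 436 to 793 CPM (log2 change -1.19, SE 0.18, limma adjusted p = 7.09e-05), and RPL13A fell from 2066, 1979.9 and 2258 CPM to 548 to 999 CPM. RPS29 shows that the fall was not restricted to mRNAs with a tract at the listed start, and a window without these letters says nothing of starts that are not listed.

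Nuclear-encoded mRNAs of energy metabolism fell too. Of 77 oxidative phosphorylation mRNAs, 74 were lower and none higher, 68 of them as shared falls, with a median of -1.03 (27.5% of all genes were lower, with a median of -0.02). ATP5MC1, which encodes a subunit of the rotating ring of ATP synthase, fell from 75.9, 72.3 and 84.1 CPM to 16.9 to 32.5 CPM, median 25.1 (log2 change -1.65, SE 0.17, limma adjusted p = 2.06e-06). COX6B1 (-1.61) and COX7C (-1.44), subunits of cytochrome c oxidase, and NDUFB4 (-1.53), of complex I, fell without overlap of the groups. Their list's input median was -0.33. All 3 BS2 inputs were below the non-transfected one for 67 of the 77, against 32.8% of all genes tested.

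Of 17 glycolytic enzyme mRNAs, 16 were shared falls (22.2% of all genes) and none rose, with a median of -1.04. GAPDH, often used as a reference gene, fell from 1637, 1631 and 1876 CPM to between 575 and 985 CPM, median 647 (log2 change -1.28, SE 0.18, limma adjusted p = 2.24e-05). LDHA, lactate dehydrogenase A, changed by -1.25 and PFKP, a phosphofructokinase, by -1.56. ENO2, the neuronal enolase, was at 11.7, 13.7 and 14.6 CPM without and 8.13 to 12.9 CPM with BS2 and did not pass the test (log2 change -0.36, SE 0.15, limma adjusted p = 0.057), although it did in some alternatives, with adjusted p down to 0.00486.

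Mitochondrial ribosomal protein mRNAs fell less, with 52 of 77 lower and 3 higher (27.5 and 27.6% of all genes). Of the lower, 43 were shared falls, and the median of the list was -0.46. The 3 rises were 1 without control replicate 1 or 2 and 6 without the nuclear construct. MRPL41 was at 26.1, 21.8 and 25.3 CPM in the controls and 7.03 to 14.8 CPM with BS2 (log2 change -1.31, SE 0.20, limma adjusted p = 6.75e-05). MRPS24 rose as given above, from 51.1, 40.5 and 60.8 CPM to 164 to 529 CPM. MRPS31 was called higher but with overlapping groups (log2 change 0.59, SE 0.19, limma adjusted p = 0.0163), and that call was lost without the first or the second control replicate (adjusted p 0.0604 and 0.0698).

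The 13 mitochondrially encoded mRNAs had no shared direction. None was called in the pooled test, while the F test among constructs called all 13 (55.2% of all genes were called by it). Their median change was -1.21 with the cytosolic, -1.52 with the nuclear, 1.5 with the mitochondrial and 0.57 with the nucleolar construct, comparisons that share the 3 controls. MT-ND1, a complex I subunit, was at 763, 969 and 983 CPM in the controls, at 495 and 571 CPM with cytosolic, 535, 366 and 448 CPM with nuclear, 3374 and 4049.5 CPM with mitochondrial and 2125 and 2631 CPM with nucleolar BS2. Mitochondrial and nucleolar libraries were above all controls and the other BS2 libraries below. MT-CO1 of cytochrome c oxidase differed likewise, from 1639 to 12515 CPM over the BS2 libraries and 4370.0, 4955 and 5086 CPM in the controls (log2 change -0.38, SE 0.56, limma adjusted p = 0.584). Without the mitochondrial construct, 3 of the 13 were called lower, and the median without the nuclear construct was 0.28 against -0.38 with all 4. The 5 group means called 5 lower and 1 higher.

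**Figure D3:**
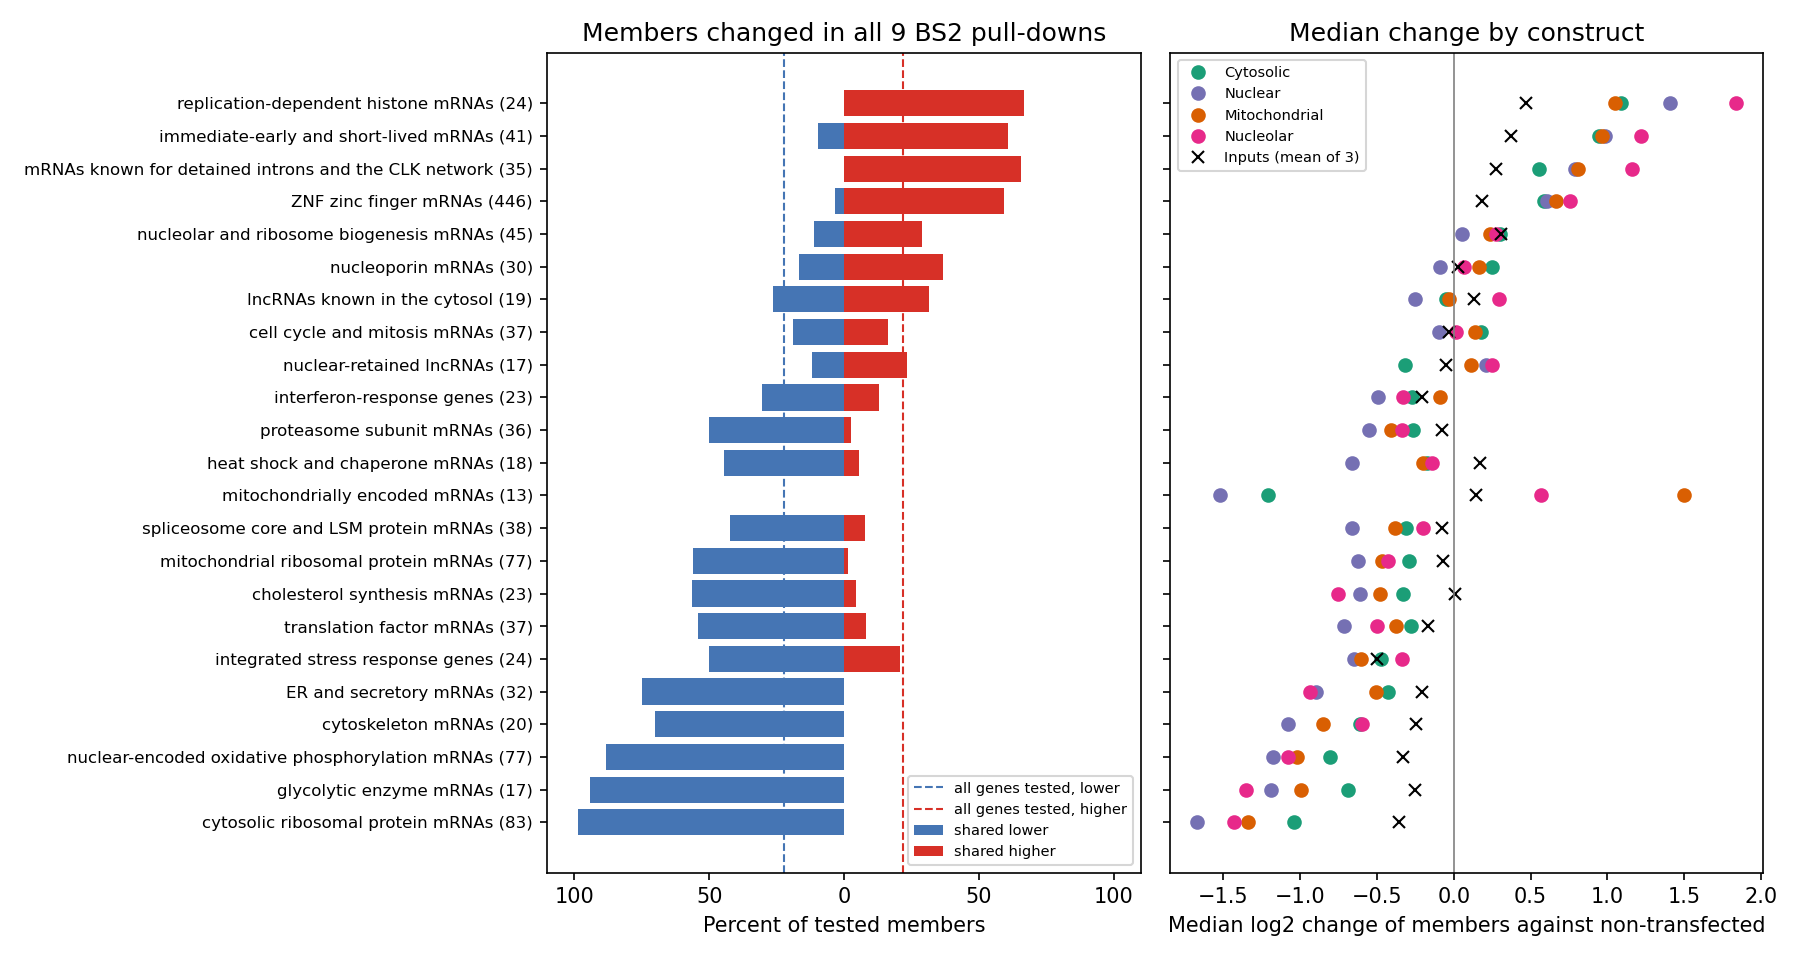
Left, percent of the tested members of each of 23 gene lists (number tested in brackets) that were shared rises (red, right of 0) or shared falls (blue, left of 0), with the shares over all genes tested, 21.7 and 22.2%, as dashed lines. Right, the median log2(CPM + 1) change of each list for each construct and for the mean of the 3 BS2 inputs, where 13 lists lie below 0 and 5 above 0 with all 4 constructs.

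The split by gene list was alike across constructs for most lists. All 4 construct medians were below 0 for 13 of the 23 lists, above 0 for 5, and of both signs for the others. Within the 13 lists the nuclear construct had the lowest median in 10 and the cytosolic construct the highest in 8. These values share the same 3 controls.

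Structural and secretory mRNAs were lower, to be read against 27.5% lower and 27.6% higher of all genes. Of 20 cytoskeleton mRNAs, 16 were lower, 14 of them shared, and none higher, with a median of -0.83. TMSB10, which encodes an actin-sequestering thymosin, fell from 229.8, 225 and 274 CPM to 43.2 to 80.8 CPM, median 66.1 (log2 change -1.99, SE 0.17, limma adjusted p = 2.59e-07). TUBB, a beta-tubulin, and ACTG1, gamma-actin, changed by -1.30 and -1.20. TPM3, a tropomyosin, was at 492, 503 and 519 CPM and 386 to 573 CPM, with overlapping groups and a change of -0.05, which had the opposite sign and passed the test under quantile normalization (0.23, adjusted p = 0.0228).

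Of 32 mRNAs of the endoplasmic reticulum and secretory path, 26 were lower (27.5% of all genes), 24 of them shared. None was higher, and the median was -0.71. SSR4, part of the translocon-associated complex, fell from 120.5, 109 and 134 CPM to 42.1 to 67 CPM (log2 change -1.23, SE 0.14, limma adjusted p = 4.07e-06), and the amyloid precursor APP changed by -1.06. HSPA5, the main chaperone of that compartment, did not pass the test (log2 change -0.18, SE 0.16, limma adjusted p = 0.342). Its level was 468 CPM in the input without BS2 and 903, 732 and 713 CPM in the inputs with it.

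Other housekeeping lists fell in part, to be read against 27.5% lower and 27.6% higher of all genes. Proteasome subunit mRNAs had 20 of 36 lower and 1 higher and a median of -0.37, with PSMB5, a catalytic subunit, at -1.19 and PSMD12, a lid subunit, as the 1 that rose (0.61). Without any 1 of the 3 nuclear libraries, 2 of them were called higher. Spliceosome core and LSM mRNAs had 21 of 38 lower and 5 higher, with a median of -0.46. SNRPD2, a core Sm protein, fell from 269, 247 and 315 CPM to 61.2 to 109.6 CPM (log2 change -1.74, SE 0.17, limma adjusted p = 9.58e-07). SF3B5 fell by 1.53, PRPF3 rose by 0.96, and SF3B1 at 0.06 did not pass the test. The 5 rises of this list were 2, 2 and 3 without control replicates 1, 2 and 3.

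Of 23 cholesterol synthesis mRNAs, 14 were lower (27.5% of all genes), 13 of them shared, and HSD17B7 was the 1 that rose (0.63). Their median was -0.50 in pull-downs and 0.01 in inputs. FDFT1, squalene synthase, fell from 223, 231 and 242 CPM to 94.5 to 140.2 CPM (log2 change -1.05, SE 0.13, limma adjusted p = 1.21e-05). INSIG1, which holds back the sterol-sensing machinery, changed by -1.02 and SQLE, squalene epoxidase, by -0.86.

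Several groups of regulatory mRNAs rose. The largest was that of ZNF zinc finger mRNAs, mostly transcription factors, of which 304 of the 446 tested were higher, 265 of them as shared rises, and 23 lower, with a median of 0.65. A further 54 of the 500 in the list did not pass the filter. The rises compare with 27.6% of all genes. ZNF79 went from 6.18, 4.99 and 5.36 CPM to 49.2 to 93.7 CPM, median 53.6 (log2 change 3.23, SE 0.19, limma adjusted p = 4.54e-09). The nucleolar libraries were highest, and the inputs were at 3.92 CPM without and 36.6, 51.6 and 32.6 CPM with BS2. ZNF835 was the largest fall of the list, from 3.76, 7.36 and 3.09 CPM to 0 to 2.22 CPM (log2 change -1.93, SE 0.30, limma adjusted p = 7.18e-05), and its highest BS2 library was the second mitochondrial one. The 23 lower calls were 12 and 15 without control replicates 2 and 3 and 14 with common totals.

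The list took 1.02 ± 0.03% of CPM (SD, n = 3) without BS2 and 1.76 ± 0.14% (SD, n = 9) with it, and the ranges of 0.983 to 1.04% and 1.57 to 1.93% did not meet. The inputs were at 0.856% without BS2 and 1.02, 1.07 and 1.04% with the 3 constructs.

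Replication-dependent histone mRNAs, which end in a stem-loop and mostly lack a poly(A) tail, had 24 of 54 members above the filter, of which 17 were higher, 16 of them shared, and none lower, with a median of 1.32. The filter kept those that were high in at least 3 pull-downs, which 9 BS2 libraries meet more easily than 3 controls, so this count describes the members that passed. Of all genes tested, 27.6% were higher. H4C14 rose from 2.55, 2.91 and 1.74 CPM to 61.1 to 157 CPM, median 84.8 (log2 change 4.76, SE 0.24, limma adjusted p = 5.9e-10). H3C6 rose from 5.23, 5.12 and 4.23 CPM to 23.6 to 37.8 CPM (log2 change 2.32, SE 0.15, limma adjusted p = 8.93e-09), with little spread among constructs. H2AC6 rose by 2.35, with the nucleolar libraries at 51.3 and 53.4 CPM and the others between 10.8 and 17.9 CPM. H2BC12, of a gene known for polyadenylated transcripts, did not pass the test (-0.04). Histone genes are near-identical in sequence, so reads may have been shared between copies.

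Immediate-early and short-lived mRNAs rose for the most part, with 27 of 41 higher and 5 lower (27.6 and 27.5% of all genes). Of the higher, 25 were shared, and the median of the list was 1.05. EGR1, a transcription factor induced by growth signals, rose from 2.92, 2.1 and 2.78 CPM to 12.8 to 28.5 CPM, median 15.4 (log2 change 2.33, SE 0.21, limma adjusted p = 4.55e-07). BTG2, an antiproliferative gene, rose from 33, 36.1 and 32.6 CPM to 117 to 236 CPM (log2 change 2.06, SE 0.19, limma adjusted p = 6e-07), and ATF3, a stress-induced factor, by 1.77. MYC, also a short-lived mRNA, went against its list, from 166, 151 and 179 CPM to 26.6 to 49.9 CPM, median 33 (log2 change -2.15, SE 0.17, limma adjusted p = 1.36e-07). MYC was lowest with the nucleolar construct and highest with the cytosolic one, and in the inputs it was at 185 CPM without and 105, 106 and 131 CPM with BS2. For 27 of the 41, all 3 BS2 inputs were above the non-transfected input, which held for 27.6% of all genes tested.

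The next list held mRNAs known for introns that stay in the nucleus unspliced, together with the CLK kinase network. Of its 35 members, 25 were higher and none lower (27.6 and 27.5% of all genes). Of the higher, 23 were shared, and the median of the list was 0.83. CCNL1, a cyclin linked to splicing, rose from 35.5, 40.3 and 42.8 CPM to 139.8 to 343 CPM, median 215 (log2 change 2.45, SE 0.23, limma adjusted p = 6.4e-07). Its cytosolic libraries, at 139.8 and 152 CPM, were the lowest with BS2, and its nucleolar ones, at 338 and 343 CPM, the highest. CLK1, a kinase of SR proteins, rose from 29.1, 33.9 and 29.8 CPM to 90 to 195 CPM (log2 change 2.15, SE 0.20, limma adjusted p = 6.09e-07), and NKTR by 1.85. MAT2A, which makes S-adenosylmethionine, was at 268, 267 and 294 CPM without and 219.7 to 378 CPM with BS2 (log2 change -0.02, SE 0.17, limma adjusted p = 0.927). Its nuclear libraries were above all controls and the other BS2 libraries below, and it was called lower when the nuclear construct was left out (-0.22, adjusted p = 0.0429).

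Stress genes moved both ways. Of 24 integrated stress response genes, 5 were higher and 13 lower (27.6 and 27.5% of all genes), with a median of -0.55 in pull-downs and -0.50 in inputs. PPP1R15A, which directs the dephosphorylation of eIF2 alpha, rose from 17.9, 14.2 and 17.5 CPM to 65.3 to 264 CPM, median 85.1 (log2 change 2.57, SE 0.38, limma adjusted p = 4.09e-05). GDF15, a secreted stress cytokine, rose from 0.157, 0.526 and 0.515 CPM to 6.92 to 18.7 CPM (log2 change 2.94, SE 0.24, limma adjusted p = 1.68e-07). With all controls under 1 CPM, GDF15 passed the filter only through the BS2 libraries, so its count among the rises follows in part from the filter. SLC7A11, the cystine transporter, fell from 193, 168 and 165 CPM to 38.5 to 72.4 CPM (log2 change -1.60, SE 0.17, limma adjusted p = 2.38e-06), and CHAC1, which breaks down glutathione, by 1.56. In the inputs, SLC7A11 was at 87.3 CPM without BS2 and 23.1, 19.1 and 27.4 CPM with it.

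Heat shock and chaperone mRNAs had 8 of 18 lower and 1 higher (27.5 and 27.6% of all genes), but the balance turned with the scaling. Quantile normalization gave 7 higher and 5 lower, common totals 4 higher, and leaving out the nuclear construct 4 higher. Without control replicate 2 or 3 the lower calls were 5 and 4, and without nuclear replicate 3 there were 2 higher. BAG3, a partner of HSP70, was the 1 that rose, from 42.5, 38.2 and 41.5 CPM to 70.8 to 131 CPM (log2 change 1.17, SE 0.15, limma adjusted p = 1.27e-05). HSPB1, a small heat shock protein, fell from 46.9, 36.3 and 53.9 CPM to 8.81 to 27.1 CPM (log2 change -1.39, SE 0.26, limma adjusted p = 0.00036), and HSPE1 by 0.96. HSPA8 did not pass the test at -0.15, and was called higher under quantile normalization (0.47, adjusted p = 0.00275).

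Interferon-response genes, which sense or answer foreign nucleic acid, had 4 of 23 tested members higher and 9 lower (27.6 and 27.5% of all genes), with a median of -0.28. At a filter of 5 CPM, 2 were higher and 4 lower. IFITM1 fell from 17.2, 19 and 17.3 CPM to 2.28 to 6.57 CPM (log2 change -1.85, SE 0.22, limma adjusted p = 6.3e-06) and IFIT1 by 1.10. ISG20, a nuclease, was at 0.235, 0.788 and 0.206 CPM without and 1.34 to 3.97 CPM with BS2 (log2 change 1.34, SE 0.25, limma adjusted p = 0.000334). With all controls under 1 CPM, ISG20 passed the filter only through the BS2 libraries, so its count among the rises follows in part from the filter. DDX58, the RNA sensor RIG-I, rose by 0.80, a call that was lost without the first control replicate (adjusted p = 0.052). A further 9 members, MX1, OAS1 and IFIT2 among them, did not pass the filter, and the 4 rises were 2 without the first or second control replicate.

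Nuclear lncRNAs had no shared direction as a list, with 6 of 17 higher and 4 lower (27.6 and 27.5% of all genes) and a median of 0.03. Cytosolic lncRNAs had 7 of 19 higher and 8 lower, with a median of 0.05. The 8 were 5 without control replicate 3 or at a filter of 5 CPM, and both medians changed sign in some alternatives, the second for example to -0.10 without the nucleolar construct. PVT1 rose from 7.78, 8.01 and 7.52 CPM to 66 to 98.2 CPM, median 78.2 (log2 change 3.21, SE 0.12, limma adjusted p = 2.37e-11), and its inputs were at 9.12 CPM without and 57.5, 64.9 and 48.4 CPM with BS2. MALAT1, a lncRNA of nuclear speckles, was at 428, 564 and 522 CPM in the controls, at 439.6 and 491 CPM with cytosolic BS2 and at 1849, 1435 and 1437 CPM with nuclear BS2. The cytosolic libraries lay among the controls, and the pooled call (log2 change 1.10, SE 0.36, limma adjusted p = 0.0175) was lost without control replicate 1 or 3 or without the nuclear construct. NEAT1, of paraspeckles, did not pass the pooled test (log2 change 0.44, SE 0.39, limma adjusted p = 0.362) but did without the cytosolic construct (0.79, adjusted p = 0.0101).

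Of the named members of the cytosolic list, SNHG12 rose from 6.18, 6.7 and 6.7 CPM to 34 to 43.5 CPM (log2 change 2.38, SE 0.10, limma adjusted p = 1.45e-10) with nearly equal values in all constructs, and SNHG17 rose by 2.05. SNHG5 fell from 179.9, 170.0 and 195 CPM to 63.8 to 109.6 CPM (log2 change -1.12, SE 0.17, limma adjusted p = 4.31e-05), and DANCR by 1.31. HCP5, of the nuclear list, fell by 1.36, with 1 control at 20.3 CPM and the other two at 4.25 and 5.77 CPM.

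Nucleolar and ribosome biogenesis mRNAs had 16 of 45 higher and 6 lower (27.6 and 27.5% of all genes), with a median of 0.20. All 3 BS2 inputs were above the control input for 31 of the 45, against 27.6% of all genes tested. The 16 were 25 with 5 group means, and the 6 lower calls were 3 without control replicate 1 or 3. UTP14A and DDX10, of the small-subunit processome and a helicase, rose by 1.35 and 1.10. NHP2, a core snoRNP protein, fell from 219, 186 and 231 CPM to 62.9 to 113 CPM (log2 change -1.38, SE 0.17, limma adjusted p = 6.51e-06). NPM1, nucleophosmin, fell by 0.67, a call that was lost without any 1 control (adjusted p 0.0662 to 0.0831).

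Nucleoporin and cell cycle mRNAs moved both ways, to be read against 27.6% higher and 27.5% lower of all genes. Nucleoporin mRNAs had 11 of 30 higher and 5 lower, with a median of 0.06. Without any 1 control 7 were higher and 2 or 3 lower, and the 5 lower were 1 with common totals and 8 with 5 group means. POM121 (0.88) and NUP98 (0.55) rose, and NUP210 fell (-0.95). Cell cycle mRNAs had 12 of 37 higher and 7 lower, with a median of 0.03, and 4, 6 and 7 were higher without control replicates 1, 2 and 3. The 7 lower were 12 with 5 group means, and the median was -0.03 without control replicate 1. CDC20, the activator of the anaphase-promoting complex, rose from 88, 89.6 and 108 CPM to 109 to 183 CPM (log2 change 0.57, SE 0.13, limma adjusted p = 0.00171), and CDC6 by 0.55. UBE2C, its partner enzyme, and RRM2, of ribonucleotide reductase, fell by 0.74 and 0.69.

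Among the HEK293T markers, 2 of 9 were higher and 5 lower (27.6 and 27.5% of all genes), with a median of -0.52. Only 1 was higher without control replicate 2 or 3 or without nuclear replicate 2. The intermediate filament genes VIM and NEFM fell by 0.81 and 0.94, and EYA1, a developmental phosphatase, rose by 0.90. Of the 5 tested markers of other cell types, 2 were higher and 3 lower (1 lower without control replicate 1 or 3), at low levels, as for COL3A1 at 10.9, 14.7 and 14.7 CPM without and 3.29 to 7.34 CPM with BS2.

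Among the largest shared falls, the controls were spread widely for some genes, such as NPFFR1, and tightly grouped for others, such as ZC3H12D. NPFFR1, a neuropeptide receptor, was at 154, 115 and 37.2 CPM in the controls and 0.561 to 18.4 CPM, median 1.65, with BS2 (log2 change -4.78, SE 0.59, limma adjusted p = 8e-06). The second mitochondrial library was the highest with BS2 and the groups stayed apart. ZC3H12D, which encodes a CCCH zinc finger protein, fell from 27.4, 29.3 and 26.6 CPM to 1.08 to 11.5 CPM, median 1.8 (log2 change -3.06, SE 0.40, limma adjusted p = 1.56e-05). TAL1, a transcription factor of blood development, fell from 35.7, 79 and 20.3 CPM to 2.38 to 8.17 CPM, median 2.9.

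The other named falls, as log2 changes, were H3Y1 (-3.49), IRAIN (-3.09), TINAGL1 (-2.98), DNAJA4 (-2.93), NEURL1-AS1 (-2.92), MTRNR2L7 (-2.89), SNX31 (-2.84), LINC00635 (-2.82), SLC52A1 (-2.71) and IZUMO4 (-2.65). The second mitochondrial library was the highest of the 9 BS2 libraries for all 13 named falls. MTRNR2L7 is a nuclear copy related to mitochondrial rRNA, so its reads may have been shared with that RNA.

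In these 13 genes the BS2 inputs did not move together. None had all 3 BS2 inputs below the non-transfected input. In 12 the cytosolic and mitochondrial BS2 inputs were both above it, and the nuclear BS2 input was below it. For DNAJA4 the control input held 34.0 CPM, and the cytosolic, nuclear and mitochondrial BS2 inputs 15.4, 63.2 and 11.7 CPM. For ZC3H12D the control input held 40.8 CPM and the BS2 inputs 149, 28.7 and 70.6 CPM, while its pull-downs differed as given above. For H3Y1 the control input held 44.9 CPM, and it was at 144, 30.9 and 63.3 CPM in the BS2 inputs, 18.2, 32.7 and 19.1 CPM in the control pull-downs and at most 7.3 CPM in the BS2 pull-downs.

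Some shared changes were close to equal for every construct. By the spread of the 4 construct means, the most alike among changes of at least 1 on the log2 scale were KANSL2, REV3L, ADNP2, CDKN2D and TIAM2, all rises. KANSL2, of a histone acetyltransferase complex, was at 37, 39.9 and 39.5 CPM without and 86.3 to 95.7 CPM, median 91.1, with BS2 (log2 change 1.20, SE 0.08, limma adjusted p = 2.17e-08). REV3L, the catalytic part of DNA polymerase zeta, was at 39.4, 38.5 and 42.3 CPM without and 79.5 to 103 CPM with BS2 (log2 change 1.20, SE 0.09, limma adjusted p = 9.84e-08). ADNP2, a homeobox gene, rose by 1.01, CDKN2D, an inhibitor of CDK4 and CDK6, by 1.06 and TIAM2, an exchange factor of Rac, by 1.12.

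The genes with the smallest p in the F test kept their direction but not their size. RNASE7, an antimicrobial ribonuclease, was at 0, 0.32 and 0.103 CPM in the controls, between 9.1 and 20.3 CPM with cytosolic, nuclear and mitochondrial BS2, and at 97.6 and 98.8 CPM with nucleolar BS2. DCAF17 was at 58.9, 61.9 and 61 CPM in the controls and at 845 and 791 CPM with nucleolar BS2, against 236 to 375 CPM with the others. TSPYL2 rose from 39.4, 47.7 and 45.8 CPM to 75 and 78.9 CPM with cytosolic and 249 and 283 CPM with nucleolar BS2. PPP1R15A, given above, had the same order. The nucleolar construct was the highest for these 4 genes and for 9 of the 10 named genes among the 15 largest rises, and no input of it was analysed here.

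The number of changes called after correcting the pull-downs for the inputs depended strongly on the fit. In the main fit the correction used the means of the pooled groups, and constructs were not matched to their own inputs. In the fit over 16 libraries, 162 of 16144 genes were higher (1.00%) and 63 lower (0.390%) in BS2 pull-downs beyond the inputs at a limma adjusted p under 0.05, and 1593 and 1228 had an unadjusted p under 0.05. The non-transfected input was a single library that this fit assumed to vary like the others, and the nucleolar pull-downs entered it without an input of their own. Of the shared rises, 153 passed as higher and none as lower, and of the shared falls, 53 passed as lower and none as higher. With construct as a covariate, 1270 genes were higher and 850 lower, and with common totals 343 and 162. In the covariate fit the nucleolar construct, without an input, had a term of its own. Its pull-downs therefore did not enter the estimated change, and those counts describe the cytosolic, nuclear and mitochondrial constructs. With 1 of the controls left out, 30 to 41 were higher and 11 to 20 lower, and the other libraries that moved the counts are in the closing section.

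H4C14 had an input-corrected change of 3.49, adjusted p = 0.00496, with inputs of 18 CPM without and 47.3, 52.6 and 35.9 CPM with BS2. CREBRF, a regulator of CREB3, rose in the pull-downs from 17.9, 16.7 and 17.1 CPM to 73.1 to 114 CPM while its inputs were at 12.7 CPM without and 18.3, 17.1 and 20.3 CPM with BS2 (input-corrected 1.84, adjusted p = 0.00496). ZNF654 (2.04, adjusted p = 0.00496), ARRDC3 (1.90, adjusted p = 0.00519), TOGARAM1, of ciliary microtubules (1.44, adjusted p = 0.00526), and MTF1, the metal-responsive transcription factor (1.62, adjusted p = 0.00541), were the other named rises.

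Among input-corrected falls were LINC00635 (-3.43, adjusted p = 0.0153), PLAT (-1.01, adjusted p = 0.0216) and CYP26A1 (-1.74, adjusted p = 0.0285). CYP26A1, which breaks down retinoic acid, was at 10.6, 12.2 and 12.1 CPM in control pull-downs and 1.94 to 4.55 CPM with BS2, while its inputs were at 10.8 CPM without and 12.3, 11 and 11.9 CPM with BS2. PLAT, tissue plasminogen activator, fell from 111, 113 and 114 CPM to 28.7 to 38.4 CPM, and its BS2 inputs were lower as well, at 55.9, 57.8 and 56.8 CPM against 99.1 CPM. Ribosomal protein mRNAs had a median input-corrected change of -1.03, with 5 of 83 called lower and none higher. ZNF mRNAs had a median of 0.45, with 13 of 446 higher and none lower. Over all genes in that fit, 1.00% were higher and 0.390% lower. These list counts were not computed for the alternative fits.

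Transcript length and base composition differed between shared rises and shared falls, though not in even steps across classes. By the median transcript length of each gene in GENCODE 29, the shared rises had a median of 1324 bases, the shared falls 911.5 and the other genes 1100. Ordered by length and cut into 4 classes of equal size, 26.5% of the longest class were shared rises and 16.1% shared falls, and 19.4 and 26.1% of the shortest. Cut likewise by GC content, 25.3% of the lowest class were shared rises and 16.1% shared falls, and 16 and 21.9% of the highest. Shared falls were most frequent in the third class by GC content, at 26.7%, and in the second by length, at 26.3%. The part of length and base composition in the changes of the gene lists was not tested.

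**Figure D4:**
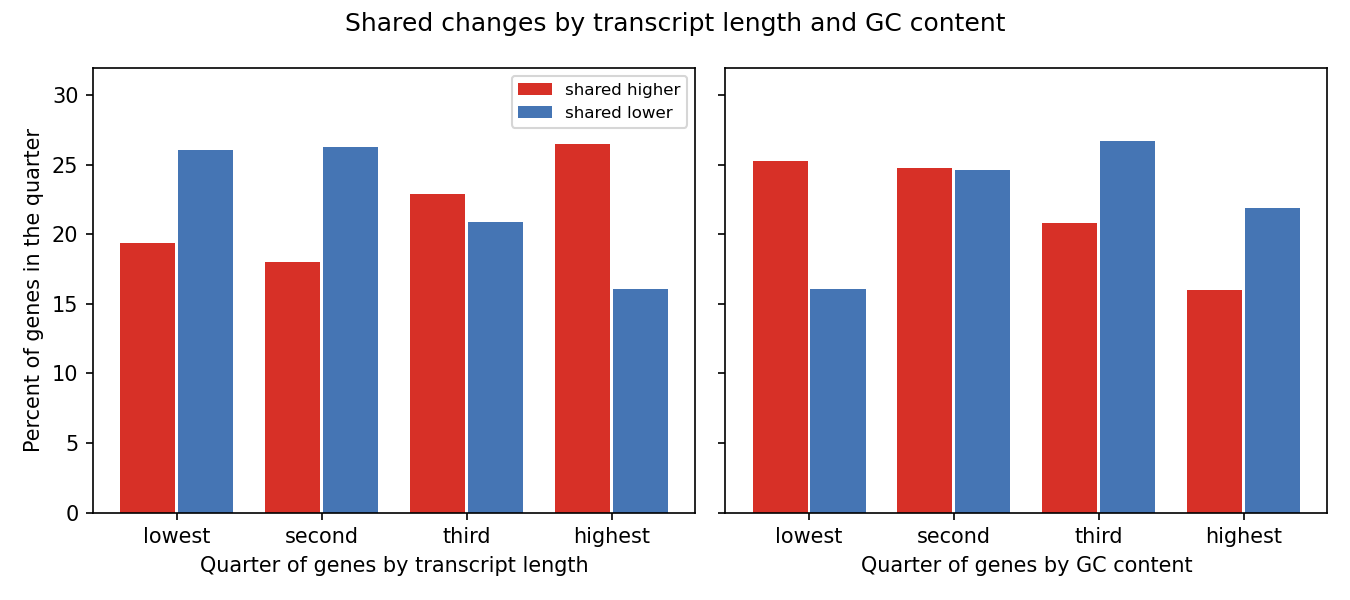
Percent of genes that were shared rises (red) or shared falls (blue) in 4 classes of equal size of the tested genes, ordered by transcript length (left) and by GC content (right). Shared rises go from 19.4% in the shortest to 26.5% in the longest class, and from 25.3% in the class of lowest GC content to 16% in the highest.

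By gene class, 22.5% of 13754 coding genes were shared rises and 23.0% shared falls, and of 1868 lncRNA genes 16.2% and 16.1%. Of 4 classes by mean level, the lowest held 17.1% shared rises and 15.3% shared falls, and the highest 25.8 and 24.9%.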

How the data were processed

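The 12 pull-downs and 4 inputs were read from 1 table of 39823 entries, of which 24917 held values, for 24878 genes. The authors deposited log2 values of TMM-normalized CPM (depth-scaled counts), per the labels, and the lowest value in each library, -2.5907, is the log2 of an offset of 0.166 CPM, which was removed to give CPM. STAR 2.7.9a, Salmon 1.4.0, limma and GRCh38 are named in the submitters' processing notes, and the role of each is not given in the sources used here. Raw counts were not used here. Depth was estimated from the spacing of low values, but only 69.1 to 84.2% of values per library came out as whole reads, so no count test was run. Intervals for counting error were therefore not computed.

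The test took genes that reached 1 CPM in 3 or more of the 12 pull-downs, on log2(CPM + 1) with limma 3.58.1 (R 4.3.3), with a trend in the variance and Benjamini-Hochberg adjustment over all genes tested: 9 BS2 against 3 non-transfected libraries, 5 group means for the constructs with an F test among the 4, and an interaction with pull-down over 16 libraries. The code was tested on simulated data. The gene lists, the members and the rules were chosen with earlier results of these data known, so no p-value is given for a list, and the planned permutation test of list shares is left out. Named genes were shared changes whose higher group averaged 5 CPM or more: the 15 largest each way, the 10 largest rises from at least 10 CPM, the 6 most and 6 least alike across constructs, the 6 with the smallest p for an input-corrected change each way, and up to 4 members of a list. Genes with clone names only are counted, not named. Further list members shown for their start sequences or as exceptions were chosen after their values were seen. GENCODE 29 matched 24085 genes (96.8%) and gave classes, lengths and positions, and start sequences are from RefSeq. Replicate numbers are shared by groups in the labels, and the check of pairing is in the closing section.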

Additional observations from a re-analysis of the deposited data

Results flagged for a closer look

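Results are listed here where 1 library stood far from the others of its group by Dixon's test, which flags about 1 in 20 groups by chance, or where the constructs differed by the limma F test. In NPFFR1 the highest BS2 library, the second mitochondrial one, was at 18.4 CPM, and in DNAJA4 the same library was at 4.47 CPM. The F test called 1617 of the shared rises and 2140 of the shared falls, and 13 of 13 mitochondrially encoded mRNAs.

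Genes named in the text that the F test called and whose construct means span at least 1.5 on the log2 scale were RNASE7 (3.08), HKDC1 (3.03), SPATA9 (2.28), KCNT2 (1.99), HMGCLL1 (1.98), H2AC6 (1.97), PPP1R15A (1.88), TSPYL2 (1.77), DCAF17 (1.73), IGFBP6 (1.6) and RASA2 (1.54), which were highest with the nucleolar construct. MT-ND1 (3.05), MT-CO1 (2.65) and MT-CO3 (2.59) were highest with the mitochondrial construct, and NEAT1 (2.05) and MALAT1 (1.75) with the nuclear one.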

How the results depend on the processing

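The counts of genes higher, lower and shared, and of genes that differ among constructs, stayed within 1.5 times of those reported under every alternative run except the demand for at least a 2-fold change, which left 1296 higher and 915 lower. The 47 genes named for their size, likeness or input-corrected change kept their pooled call and direction in all 1316 values computed for them under the alternatives. They were picked from the same libraries as called changes without overlap, so that outcome was likely from the start. The input-corrected changes of single genes were not recomputed under the alternatives. Scaling to common totals, where nuclear libraries hold the smallest summed CPM, moved the share of higher among all calls from 50.1 to 59.2% (4961 higher, 3416 lower) and the median of all genes from -0.02 to 0.09.

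The input-corrected counts were the least stable. Common totals gave 343 higher and 162 lower, and construct as a covariate 1270 and 850, without the nucleolar pull-downs in the estimated change. Leaving out 1 library gave 30 to 358 higher and 11 to 126 lower. The counts were 40 and 17, 30 and 11, and 41 and 20 without control replicates 1, 2 and 3, 91 and 29 and 358 and 126 without nuclear replicates 1 and 3, and 78 and 30 without mitochondrial replicate 1. Without mitochondrial replicate 2, 105 were higher. The cause was not tested. The quantile-normalized changes of TPM3 (0.23) and HSPA8 (0.47) had the opposite sign of the values reported.

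Same-numbered libraries of different groups deviated with a correlation of -0.178 to 0.173 (median -0.00356, 21 pairs, 3 over 0.1), so the numbers were not taken to pair libraries. With the replicate number as a block, 4138 genes were higher and 4078 lower, and the call of EEF2 was lost (adjusted p = 0.0593).

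Limits are the 3 controls, which are not labelled as mock-transfected, the single control input and the missing input of the nucleolar construct. Levels are relative, and they were TMM-normalized and not scaled to a common total, so the changes depend on that scaling. Where levels are given as a percent of CPM, a large rise of some RNAs lowers the share of others. Where controls lie below the CPM of 3 reads, a fitted change depends on the added 1 CPM. A gene under 1 CPM in any control needed BS2 libraries to pass the filter, which favours rises among such genes.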
